A study of Homo sapiens with 6 samples.

Results

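The matrix metalloproteinases (MMPs) described are 10 human genes, 5 of which (MMP1, MMP3, MMP7, MMP10 and MMP13) lie in a cluster on chromosome 11, while the other 5 (MMP2, MMP9, MMP14, MMP24 and MMP28) lie elsewhere. They were taken by symbol from a table of 23617 symbols, and the choice rested on their measured levels before and after treatment, so those levels are given as a description with no test. RNA-seq libraries, 6 in all, were made from cells treated with decitabine (DAC, the cytidine analog 5-aza-2'-deoxycytidine, which blocks DNA methyltransferases) at 10 µM, renewed daily, or left untreated, and collected at 72 h. HMLER, a line obtained by transforming human mammary cells in culture, gave 2 libraries per condition, and MDA-MB-231, a human breast cancer line, gave 1 library per condition. Per the study's methods each library came from pooled extractions, and every group is a single cell line. One label of the untreated MDA-MB-231 library carries a different line number, MDA-MB-232, whereas its title gives MDA-MB-231, which was used.

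MMPs are zinc-dependent proteases that cut collagens and other proteins of the extracellular matrix. Most are secreted as inactive precursors whose prodomain keeps the zinc site closed until other proteases remove it, and a few, among them MMP14 and MMP24, are held at the plasma membrane. In breast tumors they are studied for their part in matrix remodeling and invasion, and TIMP proteins inhibit the active enzymes.

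The HMLER table gives a single value per condition over its libraries, so no spread could be computed, and it lists only 2009 transcripts that were higher after DAC, with a lowest DAC value of 1.003 FPKM and a lowest DAC/untreated ratio of 2.001. FPKM counts sequenced fragments relative to transcript length and to the mapped fragments of the library. A gene that is not listed there has no known level in HMLER. The MDA-MB-231 table lists higher and lower transcripts alike, and Cuffdiff set a lower and an upper bound to each value. Low values there corresponded to whole reads, within 0.1 of a read. This held for 875 of 875 values of the untreated and 951 of 951 values of the DAC library. The check covered values under 15 reads of transcripts longer than 2000 bases and alone in their symbol and locus. Reads behind other MDA-MB-231 values were inferred at the same worth. For MMP1, MMP2, MMP3 and MMP28, which share a symbol or locus with another transcript, reads depend on how Cuffdiff split them. The counting intervals leave this out. MMP7 and MMP10 were shorter than the transcripts checked. For an effective length of 1 kilobase, a read stood for 0.0235 FPKM in the untreated and 0.0236 FPKM in the DAC library. Marker lists of cell types were checked in MDA-MB-231. Among all 12396 symbols that reached 1 FPKM in at least 1 library, 11.5% were more than 2-fold higher and 5.86% lower. A gain of more than 2-fold with separate bounds was met by 1.06%. Of 9 luminal and hormone receptor markers, 6 reached 1 FPKM, 2 (KRT19 and GATA3) were more than 2-fold higher and 0 lower. The bounds of GATA3 overlapped. The 9 markers summed to 252.7 FPKM untreated and 267.3 after DAC. That sum is mostly KRT18, at 170.7 and 160.9 FPKM, and KRT8, at 72.4 and 79.3. KRT19 stood at 0.518 and 13.5 FPKM, with separate bounds, and ESR1, the estrogen receptor, and CDH1, the epithelial cadherin, were at 0 untreated. The 7 mesenchymal markers all reached 1 FPKM and moved to both sides. CDH2, FN1, SPARC and TWIST1 were more than 2-fold higher, SPARC with separate bounds, whereas VIM and AXL were more than 2-fold lower with overlapping bounds. Their sum of 3357 and 1328 FPKM is mostly VIM, whose untreated bounds reach from 0 to 10419. The 4 basal and 3 endothelial markers all stayed under 1 FPKM. Of 5 leukocyte markers CD68 alone reached it, at 114.5 and 138.3 FPKM, with PTPRC at 0.0247 and 0.119. Of 4 fibroblast markers COL1A1 alone reached it, going from 0.853 to 15.6 FPKM with separate bounds, and DCN and LUM were at or below 0.0370. In HMLER the table lists KRT19, EPCAM and FOXA1 and the basal keratins KRT5, KRT14 and KRT17. The part of these markers in the MMP values was not tested.

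Promoter sequences are shown for the 4 members that the RefSeq table (GRCh38.p14) holds, because DAC acts on DNA methylation, which is placed on CpG dinucleotides, and because these 4 promoters differ in how many CpGs they hold. The table gives 250 bases before the transcription start and 50 after it. It has no entry for MMP1, MMP3, MMP13, MMP2, MMP9 and MMP28. Capitals mark each CG, each TGANTCA and each TATAAA in the strand of the gene. TGANTCA, with N any base, is a loose form of the letters AP-1 type factors bind. MMP7 lies at chr11:102530698-102530997 and MMP10 at chr11:102780579-102780878, both on the minus strand, and MMP14 at chr14:22836335-22836634 and MMP24 at chr20:35226440-35226739, both on the plus strand.
MMP7: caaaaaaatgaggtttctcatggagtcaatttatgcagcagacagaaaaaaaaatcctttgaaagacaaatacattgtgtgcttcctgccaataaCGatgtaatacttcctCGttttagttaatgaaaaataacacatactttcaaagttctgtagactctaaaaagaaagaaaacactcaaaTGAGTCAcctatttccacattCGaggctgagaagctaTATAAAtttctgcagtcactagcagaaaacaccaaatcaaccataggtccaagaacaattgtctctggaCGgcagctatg
MMP10: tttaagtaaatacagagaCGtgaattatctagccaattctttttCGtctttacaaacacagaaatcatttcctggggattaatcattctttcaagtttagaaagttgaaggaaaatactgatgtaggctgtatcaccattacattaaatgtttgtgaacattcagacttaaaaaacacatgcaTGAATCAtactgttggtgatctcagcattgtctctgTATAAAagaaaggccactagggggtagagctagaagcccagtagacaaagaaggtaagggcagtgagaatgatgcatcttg
MMP14: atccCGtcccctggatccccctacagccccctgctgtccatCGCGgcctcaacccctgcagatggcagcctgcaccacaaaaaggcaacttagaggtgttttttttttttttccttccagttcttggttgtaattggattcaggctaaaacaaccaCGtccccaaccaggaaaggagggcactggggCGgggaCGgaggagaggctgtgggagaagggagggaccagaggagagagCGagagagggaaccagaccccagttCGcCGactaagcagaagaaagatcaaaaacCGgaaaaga
MMP24: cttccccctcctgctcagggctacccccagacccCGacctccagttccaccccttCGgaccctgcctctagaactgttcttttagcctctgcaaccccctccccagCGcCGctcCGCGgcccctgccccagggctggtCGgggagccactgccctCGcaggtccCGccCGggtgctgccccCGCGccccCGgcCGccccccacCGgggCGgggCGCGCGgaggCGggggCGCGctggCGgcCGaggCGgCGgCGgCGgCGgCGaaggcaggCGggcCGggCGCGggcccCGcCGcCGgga

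The promoters of MMP7 and MMP10 held 4 and 2 CpGs, and those of MMP14 and MMP24 held 10 and 37. Over all 35116 promoters given, the median was 14 CpGs. The observed/expected CpG ratio was 0.424 for MMP7, 0.206 for MMP10, 0.442 for MMP14 and 0.785 for MMP24, against a median of 0.579. In the sequences above, the TGANTCA letters begin 67 bases before the start in both MMP7 and MMP10, and TATAAA begins 30 bases before the start in MMP7 and 31 in MMP10. Searched on both strands, neither MMP14 nor MMP24 holds either motif. TGANTCA was found in 7.71% and TATAAA in 11.5% of all promoters. The ETS type letters AGGAA, which occur in 63.1% of promoters, were found in MMP7, MMP10 and MMP14. TGANTCA and TATAAA did not overlap in these promoters, and a match describes letters and not a bound site. No methylation was measured in the files used here.

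The same features were counted in all 12 MMP family promoters of the table. The 5 from the chromosome 11 cluster (MMP7, MMP8, MMP10, MMP20 and MMP27) held 2 to 4 CpGs, 3 of the 5 held TGANTCA and 4 held TATAAA. The 7 from elsewhere held 0 to 39 CpGs, with MMP26 at 0, none held TGANTCA and 2 held TATAAA. With only G or C allowed in the middle of the AP-1 type motif, 1 of the 5 cluster promoters (MMP7) kept it.

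**Figure D1:**
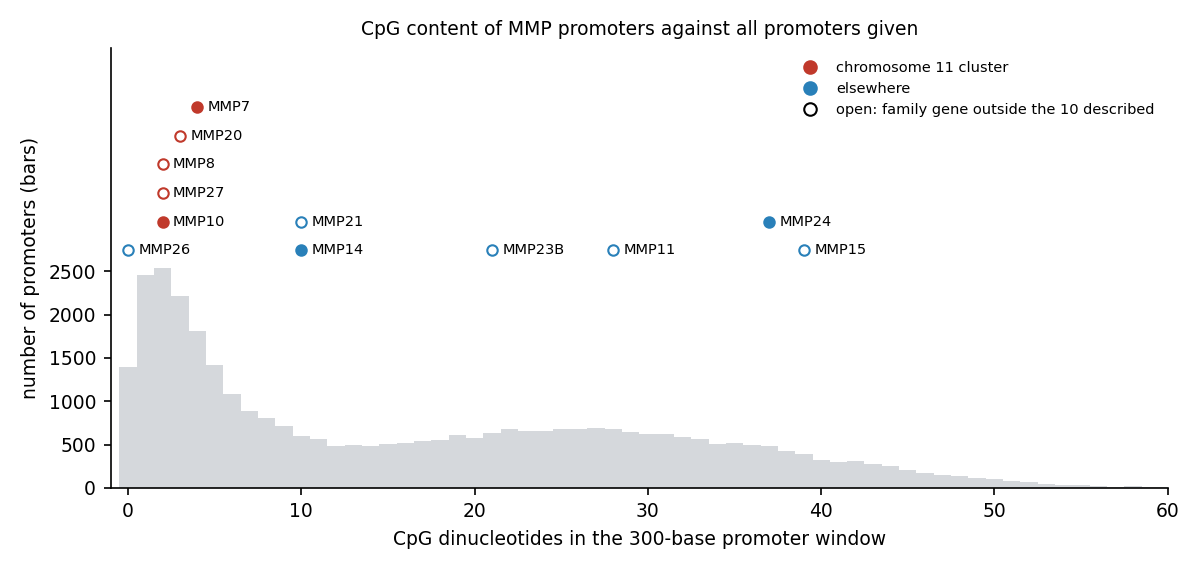
Number of CpG dinucleotides in 300-base promoter windows. Gray bars count all 35116 RefSeq promoters at each CpG number, and points, set above the bars at arbitrary heights, mark the 12 MMP family promoters given (red, chromosome 11 cluster; blue, elsewhere; filled, MMP7, MMP10, MMP14 and MMP24). The red points sit between 2 and 4 CpGs, and the blue points spread from 0 to 39.

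In MDA-MB-231, 4 of the 10 members were at 1 FPKM or more with or without DAC. MMP1 and MMP3 were more than 2-fold higher after DAC, MMP14 was more than 2-fold lower, and MMP24 was neither. Among all 12396 symbols at that level, 11.5% exceeded a 2-fold gain and 5.86% a 2-fold loss. These shares are background only, since the members were selected on the same contrast and the 4 that pass include MMP3, which passes through its DAC value alone. The remaining 6 members stayed under 1 FPKM in both libraries. Without any filter, DAC was above untreated in 7 members, below in 2 and equal at 0 in 1, where 43.9% of all symbols were above. MDA-MB-231 ratios as a whole sat slightly below 1, with a median of 0.908 over symbols at 1 FPKM or more in both libraries, a log2 shift of -0.14. In bulk RNA, a changed level per cell and a changed share of cells that express a gene cannot be told apart.

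**Figure D2:**
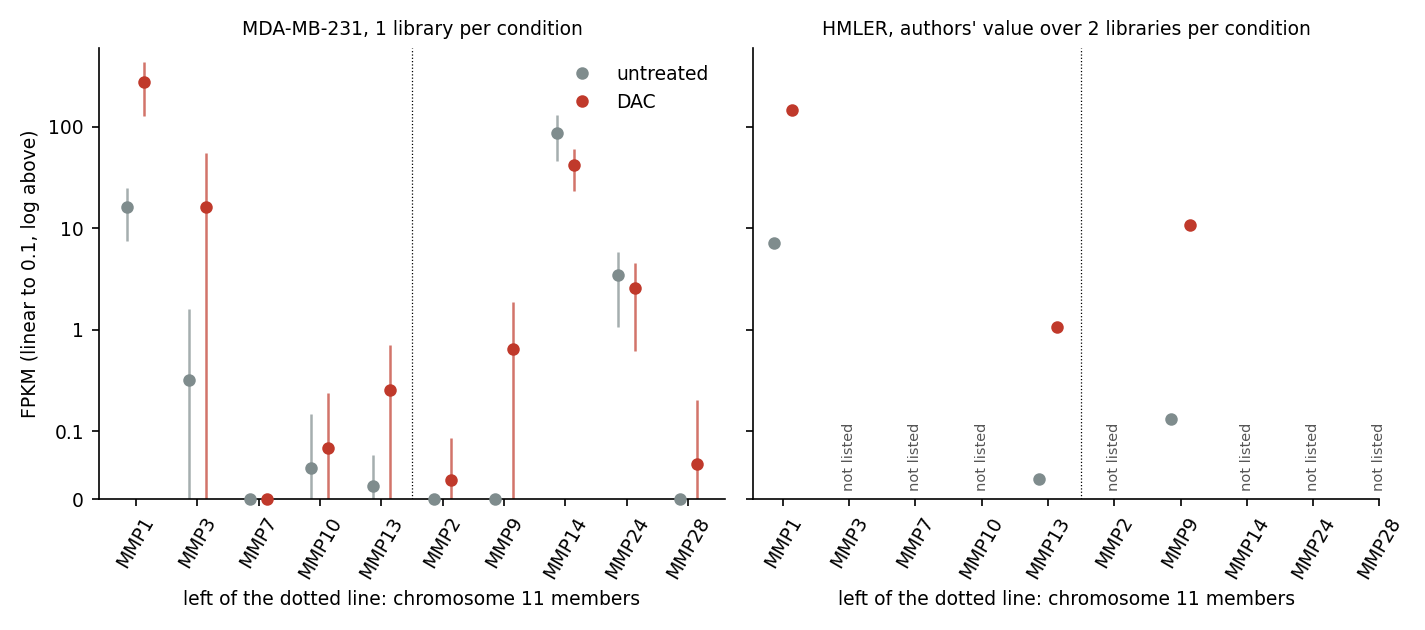
FPKM of the 10 members in untreated (gray) and DAC-treated (red) cells, on an axis that is linear up to 0.1 and logarithmic above. In MDA-MB-231 vertical lines span the bounds Cuffdiff gives to a single library, and in HMLER each point is the authors' value over 2 libraries. MMP1 reached 278.5 from 16.2 FPKM in MDA-MB-231 and 147.1 from 7.10 in HMLER, while MMP14 went from 87.7 to 42.0 in MDA-MB-231.

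Among the interstitial collagenases, which cut fibrillar collagen, MMP1 (chr11:102660132-102668891 in hg19, minus strand) stood at 16.2 FPKM in untreated MDA-MB-231 cells, with bounds of 7.48 to 24.8. After DAC it stood at 278.5 FPKM, with bounds of 127.2 to 429.9. The bounds did not overlap. Of the 12396 symbols, 1.06% combined a gain of more than 2-fold with separate bounds. The values rest on 1276 and 21854 reads, a ratio of 17.2 (exact 95% counting interval 16.3 to 18.3), which covers counting error only. On the log2 scale with a pseudocount of 1 FPKM, which understates the change of low genes, the difference was 4.03, the 56th highest among the 12396 symbols. In HMLER, MMP1 stood at 7.10 FPKM untreated and 147.1 after DAC, a ratio of 20.7. The tables were normalized separately, so only the changes within each line are set side by side. Both lines carried MMP1 mainly as the transcript NM_002421. A second transcript, NM_001145938, was listed at 0.965 and 12.2 FPKM in HMLER and at 0 in both MDA-MB-231 libraries.

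MMP13, another collagenase of the cluster (chr11:102813724-102826461, minus strand), was low in MDA-MB-231, at 0.0187 FPKM untreated and 0.253 after DAC. These are 2 and 27 reads, a ratio of 13.6 with a wide counting interval of 3.41 to 117.9, and the Cuffdiff bounds overlap. In HMLER the authors' values were 0.0297 and 1.06 FPKM, a ratio of 35.7, so the listed DAC level lies just above the lowest DAC value in that table.

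Of the stromelysins, which cut proteoglycans and activate other MMPs, MMP3 (chr11:102706532-102714340, minus strand) went from 0.318 FPKM, with bounds of 0 to 1.62, to 16.4 FPKM, with bounds of 0 to 55.6. Both libraries therefore have bounds that reach 0 and overlap. The reads were 22 and 1128, a ratio of 51.6 (counting interval 33.9 to 82.7), and the log2 difference was 3.72, the 61st highest. MMP3 is not listed in the HMLER table. MMP10, the second stromelysin of the cluster (chr11:102641233-102651359, minus strand), rested on 3 and 5 reads, at 0.0453 and 0.0759 FPKM, which gives a ratio of 1.68 with a counting interval of 0.326 to 10.8. No difference in MMP10 was detectable at this depth. It is not listed in HMLER.

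MMP7, or matrilysin, a small MMP made mostly by epithelial cells (chr11:102391239-102401481, minus strand), had 0 reads in both MDA-MB-231 libraries. A floor of 3 reads allows up to 0.0767 FPKM in the untreated library. MMP7 is not listed in HMLER.

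The gelatinases, which cut denatured collagen and basement membrane collagen, are MMP2 and MMP9. MMP9 (chr20:44637547-44645200, plus strand) was listed at 0 FPKM in untreated MDA-MB-231 cells, where 3 reads would correspond to 0.0330 FPKM. After DAC it was at 0.642 FPKM on 58 reads, with bounds of 0 to 1.88, still under 1 FPKM. In HMLER it went from 0.134 to 10.8 FPKM, a ratio of 80.4. MMP2 (chr16:55423612-55540603, plus strand) was listed at 0 untreated and at 0.0284 FPKM after DAC, on about 4 reads. It is not listed in HMLER.

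Of the membrane-bound members, MMP14 (chr14:23305769-23318250, plus strand), a transmembrane protease that cuts collagen and activates the MMP2 precursor, was the most abundant MMP in untreated MDA-MB-231 cells. It stood at 87.7 FPKM untreated, with bounds of 46.1 to 129.3, and at 42.0 FPKM after DAC, with bounds of 23.1 to 60.9. The reads were 12465 and 5930, a ratio of 0.479 (counting interval 0.464 to 0.494). The bounds overlapped, and the log2 difference of -1.04 became -0.91 once the ratios were divided by their median, which places MMP14 inside 2-fold. MMP24 (chr20:33814493-33864801, plus strand), a transmembrane MMP known mainly from brain, was at 3.47 and 2.56 FPKM on 611 and 448 reads, a ratio of 0.738 (counting interval 0.652 to 0.835), with overlapping bounds. Neither is listed in HMLER. MMP28, or epilysin (chr17:34083268-34122711, minus strand), was listed at 0 untreated and 0.0522 FPKM after DAC, on about 2 reads, and is not listed in HMLER.

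In the order of MDA-MB-231 levels, untreated cells ran MMP14, MMP1, MMP24, MMP3, MMP10 and MMP13, and the 4 others were at 0. After DAC the order was MMP1, MMP14, MMP3, MMP24, MMP9, MMP13, MMP10, MMP28, MMP2 and MMP7. In untreated cells the bounds of MMP14 and MMP1 were apart, as were those of MMP1 and MMP24, whereas MMP24 and MMP3 overlapped. After DAC the bounds of MMP1 and MMP14 were apart, and those of MMP14 and MMP3 overlapped, as did those of MMP3 and MMP24. Below MMP24 the bounds of every neighboring pair reached 0 in at least 1 gene.

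The place of the members on chromosome 11 was set against the levels along the cluster, which spans 435.2 kb. Within it, MMP1 and MMP3 stood out at log2 differences of 4.03 and 3.72, while MMP7, MMP10 and MMP13 were at 0, 0.04 and 0.30. The median of the 5 cluster members was 0.30 and that of the 5 others 0.04, against 0 over all symbols and -0.09 over symbols at 1 FPKM or more. The cluster median is the value of MMP13, a gene on 2 and 27 reads, and it shifted to 1.57 with a pseudocount of 0.1. The median of the others is the value of MMP2, a gene on 0 and about 4 reads, and it shifted to 0.36. The members were selected on this contrast, so nothing is read from these medians. The other MMP genes of the cluster, MMP8, MMP12, MMP20 and MMP27, were all at or below 0.174 FPKM in both MDA-MB-231 libraries. MMP8 had 1 and 21 reads, a ratio of 21.1 with a counting interval of 3.40 to 874 and overlapping bounds. MMP12 had 0 and 1 reads, MMP20 had 0 and 2, and MMP27 had 0 in both. Cuffdiff placed MMP1, MMP3 and the pseudogene WTAPP1 in a single locus. WTAPP1 lies on the opposite strand, shares 223 exonic bases with MMP1 (8.14% of them) and 32 with MMP3, and was at 0.0199 and 0.150 FPKM. Whether strand was used in counting is not given in the sources used here, so reads of overlapping genes cannot be told apart. The same holds for MMP9, which shares 430 exonic bases (18.4%) with SLC12A5-AS1, and for MMP24, which shares 806 (18.4%) with MMP24OS.

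**Figure D3:**
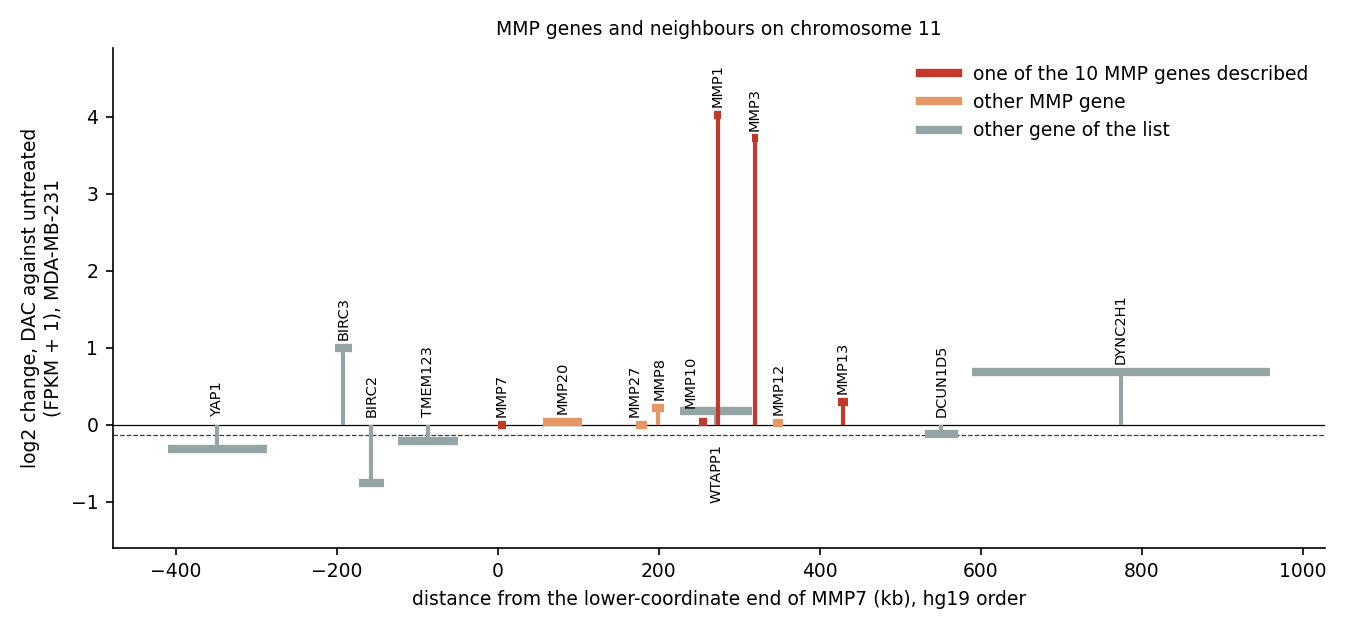
Log2 difference of DAC against untreated FPKM + 1 in MDA-MB-231 (1 library per condition) for MMP genes and listed neighbors on chromosome 11, by distance in kb from the lower-coordinate end of MMP7. Horizontal bars span each gene and the dashed line marks the log2 median ratio of -0.14. MMP1 at 4.03 and MMP3 at 3.72 stand above every other gene drawn, the next being BIRC3 at 1.002.

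Around the cluster and within it, 21 neighboring genes were listed. MMP8, MMP12, MMP20, MMP27 and WTAPP1 among them lie inside the cluster, all under 1 FPKM. Of the 21, 10 were at 1 FPKM or more. The shares among all symbols were 11.5% higher and 5.86% lower. BIRC3, an inhibitor of apoptosis, and C11orf70 were more than 2-fold higher, PDGFD, a growth factor, was more than 2-fold lower, and 7 were neither. Bounds overlapped for BIRC3, C11orf70 and PDGFD alike. C11orf70, at 0.236 and 1.17 FPKM on about 3 and 17 reads, reached 1 FPKM only after DAC. BIRC3 stood at 1.29 and 3.58 FPKM in MDA-MB-231 and at 1.10 and 21.8 in HMLER. BIRC2, which lies next to BIRC3, was at 37.1 and 21.6 FPKM in MDA-MB-231. The median log2 difference of the 21 neighbors was 0.04, which is the value of MMP20, a gene inside the cluster on 0 and 2 reads.

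Across the lines, MMP1 was the only member that was more than 2-fold higher in MDA-MB-231 and listed in HMLER, a combination met by 3.8% of the 12396 symbols. MMP1, MMP9 and MMP13 are the 3 of 10 members in the HMLER table, where 7.85% of all MDA-MB-231 symbols are listed. The members were selected on the levels in both lines, so nothing is read from either count. In MDA-MB-231, MMP9 and MMP13 were also above untreated after DAC, on 58 and 27 reads, but stayed under 1 FPKM. The genes whose 4 levels lay closest to those of MMP1, by the Euclidean distance of log2 FPKM + 1 over 4 conditions and 1853 symbols in both tables, were ISG15, SERTAD1 and CLU, at distances of 2.63, 2.73 and 2.75. None was close, since ISG15 stood at 71.4 and 187.3 FPKM in MDA-MB-231 and at 20.04 and 224.3 in HMLER.

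The make-up of MMP transcripts in MDA-MB-231 was then compared over the whole family of 24 listed genes. Summed over the family and over transcripts, 112.1 FPKM in untreated cells became 348.1 after DAC, a ratio of 3.10. Without MMP1, the other 23 genes summed to 95.96 FPKM untreated and 69.6 after DAC, a ratio of 0.725. Most of that sum was MMP14, which went from 87.7 to 42.0 FPKM, while MMP3 went from 0.318 to 16.4. The ratio of 0.725 therefore does not describe each of the 23 genes. MMP14 held 78.2% of the sum in untreated cells and 12.1% after DAC, whereas MMP1 held 14.4% and 80.0%. MMP3 went from 0.283% to 4.71% of the sum. FPKM is a level per length, so these shares compare transcript numbers and not protein or activity.

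**Figure D4:**
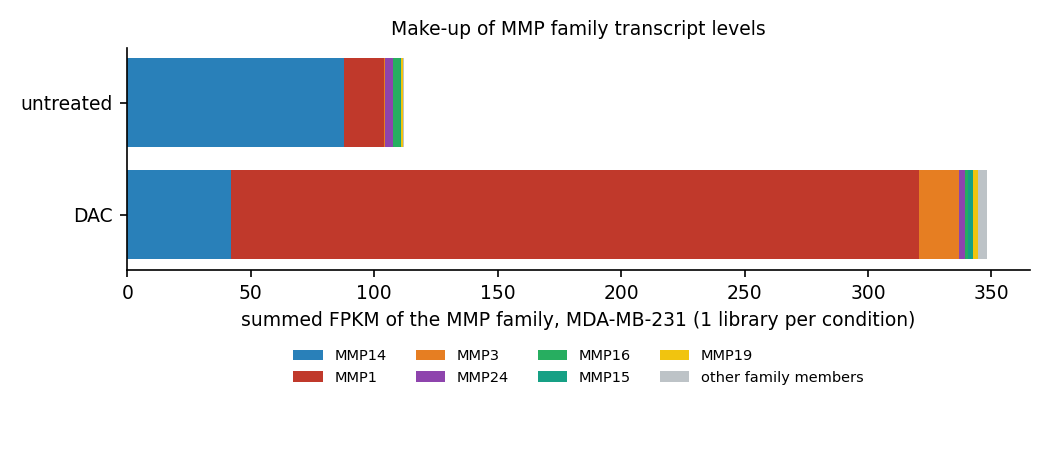
Summed FPKM of the MMP family in untreated and DAC-treated MDA-MB-231 cells (1 library per condition), stacked by gene. The bars end at 112.1 and 348.1 FPKM, and the largest segment is MMP14 in untreated cells (78.2%) and MMP1 after DAC (80.0%).

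Of the 14 family genes outside the 10 members, 4 reached 1 FPKM. MMP11, also named stromelysin-3, went from 0.171 to 1.02 FPKM, the membrane-bound MMP15 from 0.471 to 2.10 and MMP19 from 0.425 to 1.39, all more than 2-fold higher. The membrane-bound MMP16 went from 2.82 to 0.982 FPKM and was more than 2-fold lower, as was MMP14. Over the family, 8 of 24 genes reached 1 FPKM, 5 were higher, 2 lower and 1 neither, against 11.5% and 5.86% of all symbols, and only MMP1 had separate bounds. The members were selected on these values, so nothing is read from that count. The median log2 difference over the family was 0.04, which lies between the values of MMP2 and MMP10, both under 1 FPKM. None of the 14 is listed in HMLER.

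Among 17 inhibitors and activators of MMPs, 11 reached 1 FPKM, of which 4 were more than 2-fold higher, 1 (RECK) lower and 6 neither. The shares over all symbols were 11.5% higher and 5.86% lower, and the list was chosen with these results known. TIMP1, which inhibits most MMPs, went from 76.6 to 158.3 FPKM, a ratio of 2.07 just past the threshold, with overlapping bounds. TIMP4 had a ratio of 2.01, at 1.87 and 3.77 FPKM. TIMP2, which also helps MMP14 to activate MMP2, was at 70.7 and 46.1 FPKM, and RECK, a membrane-anchored inhibitor, at 4.09 and 1.81. In the plasminogen system, which activates secreted MMPs, the activator PLAT stood at 4.61 and 13.0 FPKM in MDA-MB-231 and at 21.4 and 122.9 in HMLER. The inhibitor SERPINB2 went from 0.606 to 9.72 FPKM in MDA-MB-231, with separate bounds, and from 0.154 to 7.70 in HMLER. The activator PLAU was at 82.8 and 50.6 FPKM in MDA-MB-231 and at 41.1 and 97.4 in HMLER, and its receptor PLAUR at 78.9 and 93.7 in MDA-MB-231 and at 26.2 and 52.5 in HMLER. The median log2 difference of the 17 was 0, which is the value of PLG, TMPRSS2, HPN, KLK4 and CTSG, each on 0 reads in both libraries.

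Transcription factors known to act on several MMP promoters, mostly of the AP-1 and ETS types and with RUNX2 and SP1 added, were found both above and below untreated levels in MDA-MB-231. Of 19 listed, 17 reached 1 FPKM, 6 were more than 2-fold higher and 4 lower, beside 11.5% and 5.86% of all symbols. FOS went from 2.64 to 14.1 FPKM, JUNB from 8.95 to 35.3 and JUND from 24.1 to 60.1, and FOSB, ATF3 and BATF2 were also higher. The AP-1 subunits FOSL1 and JUN went from 279.6 to 94.8 and from 91.9 to 28.6 FPKM, and the ETS factor ETV1 and the Runt factor RUNX2 were also lower. Bounds were separate for FOS and JUNB among the higher and for FOSL1 and JUN among the lower, and overlapped for the other 6. Of all 12396 symbols, 1.06% were higher with separate bounds, and no such share is given here for lower symbols. The factors listed in HMLER were ATF3, ETS2, ETV4, FOS and FOSB. FOS stood at 4.81 and 15.5 FPKM and ATF3 at 1.39 and 14.7 in HMLER. The median log2 difference of the 19 in MDA-MB-231 was 0.09, which is the value of ELF3, a gene under 1 FPKM on 0 and 8 reads. Whether any of these factors bears on the MMP levels was not tested.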

How the data were processed

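RNA-seq was carried out on 6 libraries of HMLER and MDA-MB-231 cells. The authors aligned reads to hg19 with TopHat2 and deposited FPKM values per RefSeq transcript from Cuffdiff, with versions and library scaling not given in the sources used here. The deposited HMLER columns of log2 fold change, test statistic, p-value, q-value and significance and the MDA-MB-231 fold-change column and the unnamed column beside it are the authors' comparisons and were not used. The number of per-sample columns left unmatched was 0.

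The members and gene lists were chosen with earlier results of these data known. All 10 members are named, and genes of 4 lists (family, inhibitors and activators, AP-1 and ETS factors with RUNX2 and SP1, neighbors) by counts, with values for those past 2-fold and for a few chosen after their values were seen. For each symbol the transcript with the highest summed FPKM was kept. A symbol was called higher or lower at a DAC/untreated ratio above 2 or under 0.5, without pseudocount and with at least 1 FPKM in at least 1 condition, as stand-in for the study's read-based filter. Log2 differences used a pseudocount of 1 FPKM.

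What 1 read is worth was fitted on values under 15 reads of transcripts longer than 2000 bases and alone in their symbol and locus. For this, 200 bases were taken off each length. With 1 library per condition in MDA-MB-231 and 1 pooled value in HMLER, whose depth is unknown, no test was run. Counting intervals are exact binomial, at 95%, and intervals and floors cover counting error only, since PCR copies are not independent molecules. Positions are from GENCODE lifted to GRCh37 (hg19), and promoter sequences from RefSeq (GRCh38.p14). CCDC70 was left out of the neighbors, since its locus is on chromosome 13. An item of the inhibitor and activator list is not reported here and was left out of its counts. Protein features were not analysed here. The 2-fold call and the fit of what 1 read is worth were tested on simulated counts with counting error only. The other steps were not simulated. Alternatives changed the filter, pseudocount, transcript choice, centring, status, bounds and the middle base of the AP-1 type motif. The tools were scipy 1.17.1, pandas 2.3.3, numpy 2.4.6 and matplotlib 3.10.9 under Python 3.11.15.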

Additional observations from a re-analysis of the deposited data

Results flagged for a closer look

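PLAU, the urokinase-type plasminogen activator, differed in direction between the lines. It was lower after DAC in MDA-MB-231, at 82.8 and 50.6 FPKM with overlapping bounds, and higher in HMLER, at 41.1 and 97.4 FPKM, a gap of 1.93 between the log2 differences. With 1 value per condition and line, and with an HMLER table that lists only higher transcripts, the difference was not tested.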

How the results depend on the processing

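Of 95 values recomputed, 58 stayed within 1.5 times, 37 moved and 0 changed direction among those past 2-fold. The 2 higher members became 6 with no filter on low values, where 5375 of all 23617 symbols were higher. MMP2, MMP9, MMP13 and MMP28 were added, on 2 to 58 reads after DAC. The count was 1 (MMP1) with at least 1 FPKM in both conditions or with bounds that must not overlap. The 1 lower member, MMP14, became 0 after division by the median ratio and with separate bounds. Members higher in both lines went from 1 to 3 with no filter, and no share over all symbols is given for that setting. The members were selected on these levels, so nothing is read from these counts. All symbols higher went from 1428 to 5375 with no filter, 510 with 1 FPKM in both, 467 with 5 FPKM, 2219 over every transcript, 892 with 1 FPKM added in the ratio and 131 with separate bounds. The cluster median of 0.30 became 1.57 and 0.54 with pseudocounts of 0.1 and 0.5, and that of the others, 0.04, became 0.36 and 0.0798, and 0.18 relative to the median ratio. Cluster promoters with AP-1 type letters went from 3 to 1, and all promoters from 7.71% to 4.95%, with G or C in the middle. No paired analysis was possible because values of HMLER are pooled over libraries and those of MDA-MB-231 come from a lone library each, and for the same reason no replicate could be left out. Depth limits MMP7, MMP10, MMP2 and MMP28, each on 5 or fewer reads.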
